A study of Mus musculus with 59 samples.

Results

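Let-7 microRNA genes were followed through mouse liver, VsWAT (a tissue named here as the labels abbreviate it) and plasma, in RNA before and after the pull-down of a labelled fraction. The genes were taken by symbol and were 9 in number: Mirlet7a-1, Mirlet7b, Mirlet7c-1, Mirlet7c-2, Mirlet7d, Mirlet7f-1, Mirlet7f-2, Mirlet7g and Mirlet7i, out of 1180 microRNA genes and 55273 features in each count file. Counts were found for 3 of the 9, namely Mirlet7g, Mirlet7f-2 and Mirlet7c-1, and the remaining 6 were at 0 in all 59 libraries. The series fed male mice a high-fat diet or a low-fat control diet for 2 weeks, at an age of 12 weeks, and its title calls the method iTag labelling. All groups shared one strain: an FVB.129P2 background carrying the alleles Cyp3a13tm1Ahs and Del(5Cyp3a57-Cyp3a59)1Ahs together with the transgene Tg(APOE-CYP3A4)A1Ahs, which places human CYP3A4 under APOE sequences. Small RNA libraries were made from input and pull-down RNA on each diet, with 3 libraries per group in liver and VsWAT and 2 per group in plasma, except that the liver pull-down on the low-fat diet had 2. Liver mRNA (3 libraries per group), kidney mRNA (3 on the high-fat and 2 on the low-fat diet in each fraction) and VsWAT total RNA (3 per diet, without a pull-down) gave counts at the level of precursors and other transcripts. Neither the cells that were labelled nor the animals behind each library are given in the labels, and each p-value here therefore reflects spread among libraries, which may be technical.

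Let-7 genes are transcribed as long primary RNAs, cut by Drosha to a hairpin and by Dicer to a short duplex, of which one arm is loaded into an Argonaute protein. The loaded arm pairs through its seed, bases 2 to 8, with messenger RNAs and lowers their stability and translation. The family is known for high levels in differentiated tissue, for repression of growth genes such as Myc and Hmga2, and for an influence on insulin signalling and glucose handling in mice. Lin28 proteins hold it low in embryonic cells by binding its precursors.

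The mature sequences show how little separates the members, and which of them a read could tell apart. The 9 genes encode 7 distinct 5p sequences with 1 shared seed, shown here in capitals (RefSeq, GRCm38.p6).
let-7a-5p (Mirlet7a-1): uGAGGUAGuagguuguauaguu
let-7b-5p (Mirlet7b): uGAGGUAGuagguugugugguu
let-7c-5p (Mirlet7c-1 and Mirlet7c-2): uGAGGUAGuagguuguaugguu
let-7d-5p (Mirlet7d): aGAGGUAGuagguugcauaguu
let-7f-5p (Mirlet7f-1 and Mirlet7f-2): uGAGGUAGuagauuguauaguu
let-7g-5p (Mirlet7g): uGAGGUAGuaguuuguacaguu
let-7i-5p (Mirlet7i): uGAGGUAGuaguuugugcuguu
miR-98-5p (Mir98, a family gene next to Mirlet7f-2): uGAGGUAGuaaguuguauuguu
Counted from 1 at the 5′ end, let-7f differs from let-7a by G12A alone and let-7c differs from let-7a by A19G alone. Let-7g and let-7i are 2 bases apart, at A17G and A19U. The 5p sequence of Mirlet7c-1 is the same as that of Mirlet7c-2, and the 5p sequence of Mirlet7f-2 is the same as that of Mirlet7f-1. A mature 5p read of these genes therefore fits both copies equally, whereas the 5p of Mirlet7g occurred in no other of the 1005 mouse hairpins searched.

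The hairpins of the 3 counted genes are shown because the counts are per hairpin locus, with the 5p and 3p arms in capitals.
Mirlet7g hairpin: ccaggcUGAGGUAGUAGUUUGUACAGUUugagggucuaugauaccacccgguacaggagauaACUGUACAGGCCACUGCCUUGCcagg
Mirlet7f-2 hairpin: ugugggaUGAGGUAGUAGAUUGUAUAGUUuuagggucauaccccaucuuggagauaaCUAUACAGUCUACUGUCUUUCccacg
Mirlet7c-1 hairpin: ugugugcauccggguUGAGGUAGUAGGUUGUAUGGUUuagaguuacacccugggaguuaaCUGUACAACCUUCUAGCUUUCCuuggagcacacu
Mirlet7g lies at chr9:106178840-106178927 on the plus strand, within Wdr82, and its hairpin has 88 bases. Mirlet7f-2 lies at chrX:151912346-151912428 on the plus strand, within Huwe1, with 83 bases, and Mir98 follows it in the same gene at chrX:151913214-151913321. Mirlet7c-1 lies at chr16:77599657-77599750 on the plus strand, in no RefSeq gene of the table used, and has 94 bases. The 3p arms do separate the copies: Mirlet7f-2 differs from Mirlet7f-1 at 4 positions (A8G, U13C, C16U and C20U, Mirlet7f-1 first), and Mirlet7c-2 differs from Mirlet7c-1 at 5 (G3A, C9U, U12A, A15G and G16U, Mirlet7c-1 first).

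The 6 genes at 0 included both members whose 5p occurs in a single hairpin and members with a copy. Mirlet7b, Mirlet7d and Mirlet7i have a 5p of their own, while Mirlet7a-1, Mirlet7c-2 and Mirlet7f-1 share theirs with another let-7 gene. Over the 31 small RNA libraries, which held 43052321 counts, 0 counts allow a level of at most 0.0697 CPM (counts per 1000000 counts of a library), a limit that covers counting error only. Mirlet7a-1, Mirlet7d, Mirlet7f-1 and Mirlet7i are on the minus strand and all 3 counted members are on the plus strand, but Mirlet7b and Mirlet7c-2 are on the plus strand too, within Lncppara. A value of 0 was common in the files: 593 of the 1180 microRNA genes (50.2%) had no count, against 6 of 9 members, and among them were genes that most tissues use, such as Mir21a, Mir22, Mir191 and Mir126a. Of plus-strand microRNA genes 45.9% were at 0, and of minus-strand ones 52.5%. These 6 members are therefore listed at 0 and are not described as silent, and what set them to 0 was not tested. Of 3 other family genes, Mirlet7a-2 had 156 counts, Mir98 had 1192 and Mirlet7e had 0.

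Small RNA libraries held between 221875 and 3608065 counts, and microRNA genes took 0.195 to 3.60% of them. One gene, Mir6236, held 42.3 to 96.3% of all microRNA counts, so levels within the microRNA pool are given without it. Marker genes followed the tissue labels. Hepatocyte markers summed to 28690 to 58720 CPM in liver inputs and to 220 to 1589 CPM in VsWAT inputs, and adipocyte markers to 6954 to 9059 CPM in VsWAT inputs and 3.34 to 8.59 CPM in liver inputs. In bulk RNA, fewer cells of a type and less RNA per cell cannot be told apart.

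In input RNA, Mirlet7g had the highest mean of the let-7 genes in all 3 sources. Its CPM in liver input was 129, 194 and 334 on the high-fat diet and 270, 182 and 253 on the low-fat diet. VsWAT input gave 76.9, 74.9 and 114 on the high-fat and 227, 122 and 233 on the low-fat diet, and plasma input 458 and 285 on the high-fat and 550 and 214 on the low-fat diet. The diets overlapped in liver and plasma, and in VsWAT the 3 high-fat libraries were the lowest. Mirlet7f-2 was lower, at 27.2 to 72.2 CPM in liver, 17.1 to 56.1 in VsWAT and 10.9 to 41.8 in plasma inputs. Mirlet7c-1 differed widely between sources, at 73.9 to 127 CPM in VsWAT, 14.7 to 50.5 in liver and 0 to 14.5 in plasma, where 2 of 4 input libraries had no count.

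Per 100 bases of hairpin, the mean input level of Mirlet7g was 258 CPM in liver, 161 in VsWAT and 428 in plasma. On the same scale Mirlet7f-2 stood at 59.1, 35.3 and 30.3 CPM, and Mirlet7c-1 at 35.7, 104 and 7.03 CPM. The order was thus Mirlet7g, Mirlet7f-2, Mirlet7c-1 in liver and plasma, and Mirlet7g, Mirlet7c-1, Mirlet7f-2 in VsWAT. In VsWAT input the ranges of Mirlet7g and Mirlet7c-1 overlapped, at 74.9 to 233 and 73.9 to 127 CPM, so these neighbours in the order did not separate. Mirlet7c-1 outnumbered Mirlet7g in 2 of the 6 VsWAT inputs, both on the high-fat diet. These were libraries 1 and 2, whose counts over all features differed by little more than counting error. Among microRNA genes with counts, Mirlet7g ranked 3 of 225 in liver input, 7 of 307 in VsWAT input and 7 of 200 in plasma input.

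**Figure D1:**
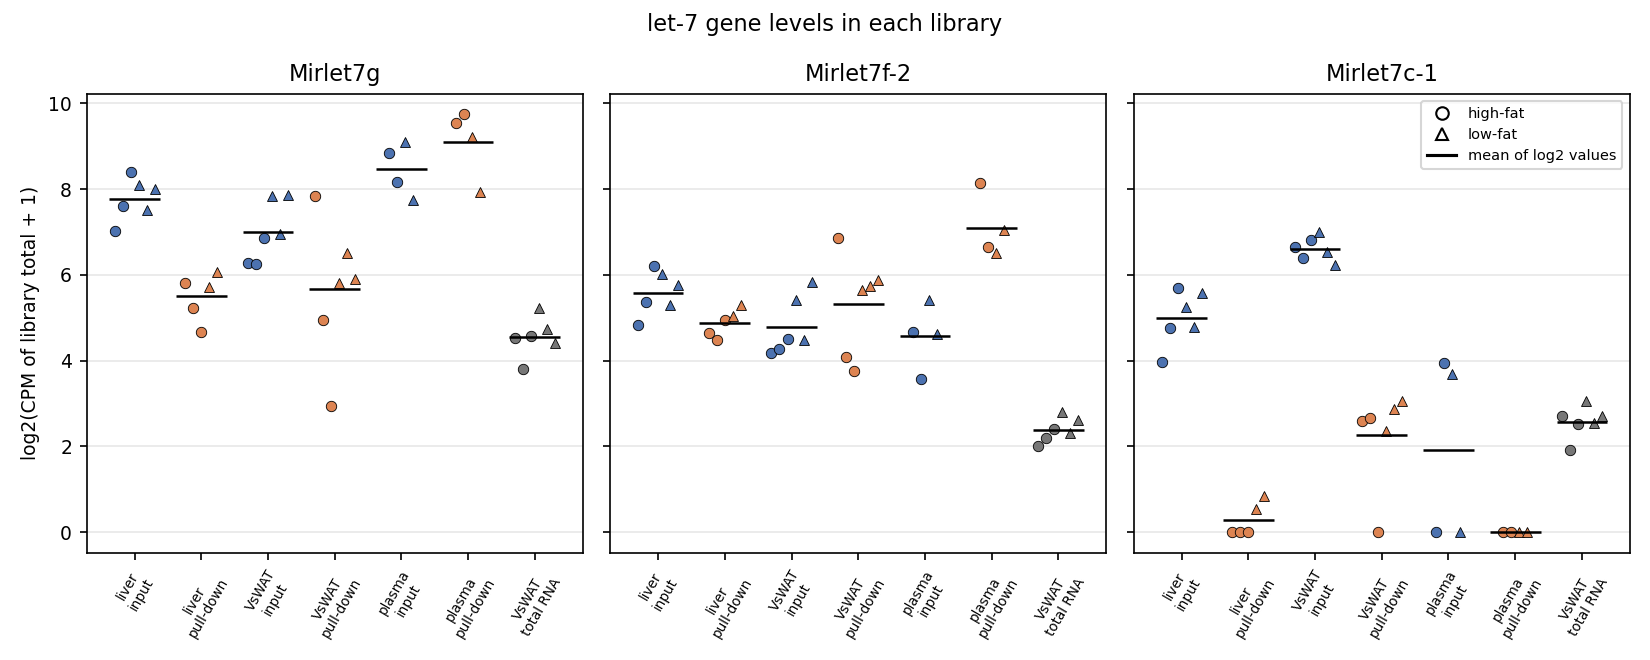
Levels of Mirlet7g, Mirlet7f-2 and Mirlet7c-1 as log2(CPM + 1), on library totals, in each small RNA library of liver, VsWAT and plasma and in VsWAT total RNA. Each point is 1 library (circles high-fat, triangles low-fat) and each bar the mean of the log2 values; Mirlet7c-1 falls to 0 or near 0 in the liver and plasma pull-downs, where Mirlet7g and Mirlet7f-2 stay counted in every library.

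Tissue differences were tested on the inputs alone, with edgeR's quasi-likelihood test in 1 model of liver, VsWAT and plasma, scaled by the trimmed mean of M values (TMM) and adjusted over all 9429 features by the Benjamini-Hochberg method. Liver exceeded VsWAT in Mirlet7g by 1.67 ± 0.39 (SE) on the log2 scale, adjusted p = 9.1e-04, and in Mirlet7f-2 by 1.70 ± 0.34, adjusted p = 1.8e-04. Mirlet7c-1 went the other way by -0.67 ± 0.35, which edgeR did not call, adjusted p = 0.10. The comparison called 59.2% of all features, so 2 of 3 members is near the background share. Mirlet7c-1 was called by edgeR on library totals, at -1.56 (adjusted p = 8.6e-05), among microRNA genes alone, at -0.94 (adjusted p = 0.042), without the filter on low counts (adjusted p = 0.026) and without high-fat input library 3 of liver, at -1.06 (adjusted p = 0.011). Under both library-total scaling and the fit of microRNA genes alone, no member's direction turned in this comparison.

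Plasma exceeded VsWAT in Mirlet7g by 3.23 ± 0.43 (edgeR, adjusted p = 6.4e-06), in a comparison that called 35.5% of features and 63.2% of 76 microRNA genes higher. The value was 1.52 on library totals and 0.06 among microRNA genes alone, where edgeR did not call it (adjusted p = 0.87). Mirlet7c-1 was lower in plasma than in VsWAT by -2.07 ± 0.60, adjusted p = 0.011 by edgeR. DESeq2 did not call it (-1.76, adjusted p = 0.053), nor did edgeR without low-fat input library 2 of plasma (-1.31, adjusted p = 0.099), and leaving out one or the other plasma input that held its counts gave -5.51 and -6.12. Mirlet7f-2 was higher in plasma than in VsWAT by 1.32 ± 0.49, adjusted p = 0.040 by edgeR, a call lost without any 1 of 4 libraries (0.69 to 1.46), and its change was -0.28 on library totals and -1.66 among microRNA genes alone.

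Against liver, plasma was higher in Mirlet7g by 1.55 ± 0.42 (edgeR, adjusted p = 0.0040), where 52.1% of features were called and 64.5% of microRNA genes were higher. This value was 0.73 on library totals and 0.52 without low-fat input library 1 of plasma, neither of them called, and it turned to -1.37 among microRNA genes alone. Mirlet7c-1 was at -1.40 ± 0.64 (adjusted p = 0.071) and Mirlet7f-2 at -0.38 ± 0.46 (adjusted p = 0.51) by edgeR in the same comparison. Both were called lower on library totals, at -2.15 and -1.11, and among microRNA genes alone, at -4.36 and -3.10, and Mirlet7c-1 also without a filter (-1.59) and without any 1 of 3 libraries (-5.46 to -1.59). Erythroid markers (haemoglobin and other red-cell genes) summed to 20800 to 43410 CPM in plasma inputs against 58.9 to 452 in liver and 443 to 1300 in VsWAT inputs, with Mir451a and Mir486 at 0 in all. Their part in the let-7 levels was not tested. Plasma RNA was also extracted with another reagent than tissue RNA, and source and extraction cannot be told apart.

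The central comparison set the pull-down against the input. In liver, all 3 counted let-7 genes were lower in the pull-down, Mirlet7c-1 by far the most and Mirlet7f-2 the least. In VsWAT only Mirlet7c-1 of the 3 passed the test in the fit without a replicate block, and in plasma none did. Relative to the other microRNA genes, which as a class were lower in the pull-down of liver and VsWAT, Mirlet7f-2 and its neighbour Mir98 had higher changes than most.

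Mirlet7g in liver pull-downs stood at 55.4, 36.7 and 24.4 CPM on the high-fat diet and at 51.6 and 65.6 CPM on the low-fat diet. All 5 lay below all 6 inputs, a separation in that direction that 4.87% of features showed. The edgeR change was -3.44 ± 0.34 on the log2 scale, 10.8-fold lower, adjusted p = 1.0e-06. Liver pull-downs held Mirlet7f-2 at 24.0, 21.3 and 29.6 CPM on the high-fat diet and at 31.9 and 38.2 CPM on the low-fat diet, which overlapped the inputs. Its edgeR change was -1.94 ± 0.31, adjusted p = 9.2e-05, on the TMM scale, and it turned to 1.08 when microRNA genes alone were fitted. The scale weighs heavily here because the median change of the 40 tested microRNA genes was -4.67, against 0.10 for all 8401 features.

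Mirlet7c-1 was nearly absent from liver pull-downs. Its counts there were 0, 0 and 0 on the high-fat diet and 1 and 1 on the low-fat diet, against 13 to 95 per input library. Summed over libraries, 280 of 8851404 input counts and 2 of 9265438 pull-down counts were Mirlet7c-1, a ratio of 147 with an exact 95% interval of 40.2 to 1216 that covers counting error only. The edgeR change was -8.22 ± 0.65, adjusted p = 2.8e-07. With so few pull-down counts that fitted value depends on the prior count and is no bound. Mirlet7a-2, a family gene outside the 9, had 65 input counts and 1 pull-down count in liver.

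Of all features, edgeR called 55.4% in the liver comparison (27% higher and 28.3% lower), and of microRNA genes it called 37 of 40 lower (92.5%). The 3 members called lower are thus what most tested microRNA genes did. What set members apart was their place in that distribution: Mirlet7f-2 had the 6th highest change of the 40, Mirlet7g the 15th and Mirlet7c-1 the 39th, while Mir98 was 5th at -1.22 ± 0.48 (edgeR adjusted p = 0.040, lost when any 1 of 6 of the 11 libraries was left out and by DESeq2, and at -0.04 on library totals). As a description without a test, these 3 genes with 1 seed thus lay far apart among the microRNA genes.

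VsWAT pull-downs held Mirlet7g at 228, 30.0 and 6.70 CPM on the high-fat diet and at 55.3, 90.7 and 58.5 CPM on the low-fat diet. High-fat library 1 was as high as the highest inputs, and the fractions overlapped. The edgeR change was -1.36 ± 0.55, adjusted p = 0.058, and without that library it was -2.58, adjusted p = 5.3e-05. Without high-fat pull-down library 3, the lowest, it was -1.07 and also passed, adjusted p = 0.041, and among microRNA genes alone the sign turned to 0.69. Mirlet7f-2 in the same libraries was at 116, 16.1 and 12.4 CPM on the high-fat and 49.2, 52.0 and 58.1 CPM on the low-fat diet, overlapping the inputs. Its change was 0.29 ± 0.49 by edgeR, adjusted p = 0.65, the highest of the 63 microRNA genes tested, and -0.66 without high-fat pull-down library 1.

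Mirlet7c-1 fell in VsWAT as well. Pull-down levels were 5.02, 5.36 and 0 CPM on the high-fat diet and 4.10, 6.30 and 7.36 CPM on the low-fat diet, below every input, as 4.51% of features were. Over the libraries, 815 input and 64 pull-down counts gave a ratio of 21.0 by CPM (exact 95% interval 16.3 to 27.6, counting error only), and the edgeR change was -5.01 ± 0.35, adjusted p = 5.3e-08. Its place was 54th of 63. Called features made up 43.9% of 11339 (20.9% higher and 23% lower), 48 of 63 microRNA genes were lower (76.2%) and 0 were higher, with a microRNA median of -3.10. Mirlet7a-2 fell by 4.36 in VsWAT (adjusted p = 1.8e-05 by edgeR), from 59 counts to 9.

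Marker genes of several cell types moved in these small RNA pull-downs too. In liver, edgeR called lower 7 of 8 hepatocyte genes, 3 of 3 tested of 9 erythroid genes and 5 of 5 tested of 6 macrophage genes, against 28.3% of all features. In VsWAT it called lower 4 of 4 tested erythroid, 5 of 5 tested macrophage and 3 of 7 tested hepatocyte genes, against 23% of all features, while 5 of 8 adipocyte genes were higher and 3 lower. On library totals, hepatocyte genes summed to 28690 to 58720 CPM in liver inputs and 33650 to 45870 in liver pull-downs, and macrophage genes to 156 to 348 and 99.1 to 223 CPM. Adipocyte genes summed to 6954 to 9059 CPM in VsWAT inputs and 15250 to 22570 in VsWAT pull-downs, macrophage genes to 419 to 713 and 187 to 514 CPM, and erythroid genes to 443 to 1300 and 134 to 577 CPM. In liver the erythroid sums were 58.9 to 452 CPM in input and 62.7 to 208 in the pull-down. Mir451a, Mir486 and Mir223 were at 0 in both fractions of both tissues. The part of these cell types in the let-7 changes was not tested.

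Plasma gave 740 and 854 CPM of Mirlet7g in pull-downs on the high-fat diet and 592 and 243 on the low-fat diet, which overlapped the inputs. The edgeR change was -1.43 ± 0.86 on the TMM scale, adjusted p = 0.40, and 0.61 on library totals. Mirlet7f-2 was at 281 and 99.6 CPM on the high-fat and 90.7 and 131 CPM on the low-fat diet in the pull-downs. All 4 exceeded all 4 inputs in CPM, as 4.96% of features did, but with TMM scaling the edgeR change was 0.53 ± 1.18, adjusted p = 0.86, and it was below 0 without any 1 of 4 libraries. Mirlet7c-1 had 18 input counts, all in 2 of the 4 inputs, and 0 pull-down counts, and was too low for the fit. Against a floor of 3 counts over the pull-down group it was 3.88-fold lower, and the exact 95% interval of the ratio, for counting error only, reaches down to 2.85-fold. Plasma had few calls by edgeR, which called 0.49% of 3469 features. DESeq2 called 213 of the 2191 features it tested, among them 16 of 48 microRNA genes (13 lower and 3 higher).

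**Figure D2:**
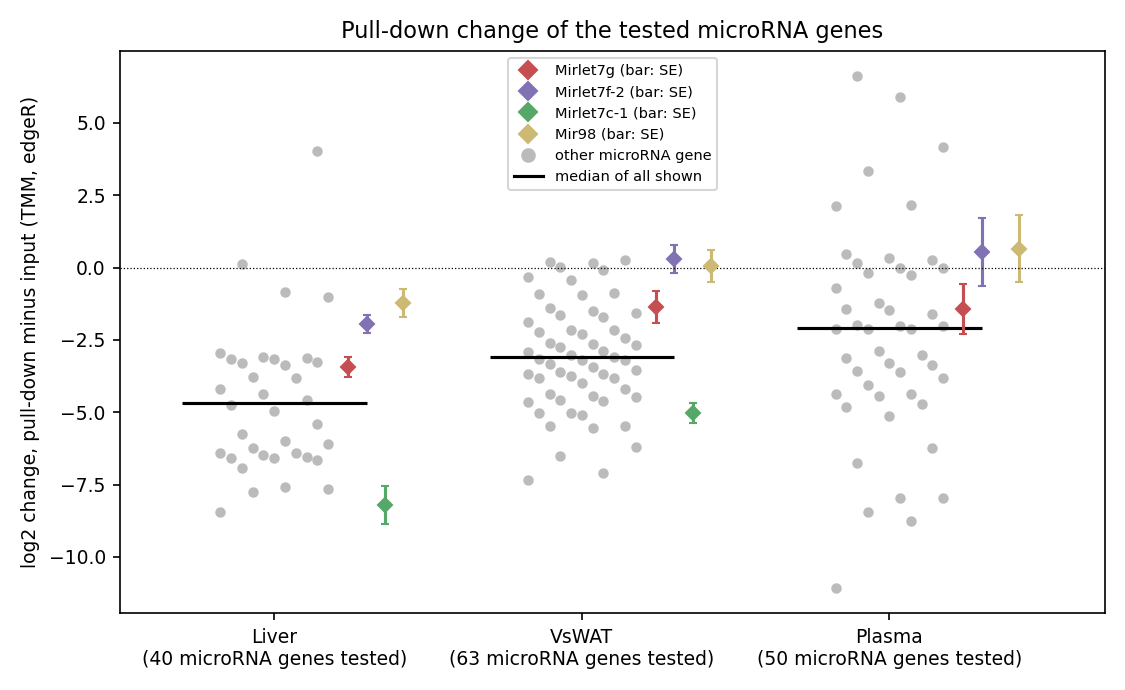
Log2 change from input to pull-down (edgeR, TMM) of each microRNA gene tested in liver, VsWAT and plasma. Grey points are single genes, diamonds the let-7 genes and Mir98 with bars of 1 SE, and black lines the medians of all genes shown (-4.67, -3.10 and -2.07); Mirlet7f-2 and Mir98 lie above the line in each source and Mirlet7c-1 below it in liver and VsWAT.

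A fold between fractions depends on the scale, because the pull-downs of liver, VsWAT and plasma differed from the inputs in composition. With library totals in place of TMM, the median change of all features rose to 1.22 in liver, 0.64 in VsWAT and 1.97 in plasma. Changes of members rose alongside it, to -2.22 for Mirlet7g, -0.74 for Mirlet7f-2 and -7.22 for Mirlet7c-1 in liver, all called by edgeR. When microRNA genes alone were fitted, liver Mirlet7g was at -0.44 (adjusted p = 0.020), Mirlet7f-2 at 1.08 (adjusted p = 8.9e-05) and Mirlet7c-1 at -6.06 (adjusted p = 6.6e-06). In VsWAT the same fit gave 0.69, 2.53 and -2.62 for these genes, and edgeR called each of them. The order Mirlet7f-2 over Mirlet7g over Mirlet7c-1 held in liver and VsWAT under each of the 4 scalings shown, whereas the direction of Mirlet7f-2 and of Mirlet7g did not. A scaling moves all genes of a library by a common factor. That order was therefore largely fixed beforehand, and its persistence is no sign of robustness.

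A ratio of 2 genes within a library does not depend on scaling. The ratios were chosen after their values had been seen, and 6 tests were adjusted together. Mirlet7f-2 per count of Mirlet7g was 0.207 to 0.234 in the 6 liver inputs, with a mean of 0.215 ± 0.010 (SD), although Mirlet7g itself ran from 114 to 658 counts in these libraries. In the liver pull-downs it was 0.432, 0.580 and 1.21 on the high-fat diet and 0.619 and 0.583 on the low-fat diet, a mean of 0.686 ± 0.304 (SD). The ratio of 1.21 rested on 14 Mirlet7g counts. From counts summed over libraries the ratio was 0.214 in liver input and 0.551 in the pull-down. The fractions did not overlap and the means differed 3.20-fold (exact two-sided permutation test, p = 0.0022, the smallest this design gives; adjusted p = 0.0032).

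VsWAT showed the same separation. Inputs lay between 0.175 and 0.242 and pull-downs between 0.508 and 1.86, with means of 0.209 ± 0.030 and 0.893 ± 0.513 (SD, n = 6 each), 4.28-fold apart (exact permutation p = 0.0022, adjusted p = 0.0032). The ratio of 1.86 rested on 14 Mirlet7g counts, and counts summed over libraries gave 0.203 in VsWAT input and 0.645 in the pull-down. Plasma inputs were at 0.0381 to 0.109 and pull-downs at 0.117 to 0.537, 4.29-fold apart in their means (n = 4 each, exact permutation p = 0.0286, the smallest possible; adjusted p = 0.0343), a call lost without any 1 of the 4 inputs. VsWAT total RNA, which had no pull-down, gave ratios of 0.138 to 0.275, over the range of the VsWAT inputs.

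Other microRNA genes give the background for that separation. Of the microRNA genes other than Mirlet7g that passed the filter on low counts, some had ratios to Mirlet7g that were higher in every pull-down than in any input. These were 7 of 39 (17.9%) in liver, 2 of 62 (3.23%) in VsWAT and 6 of 49 (12.2%) in plasma. In VsWAT the 2 were Mirlet7f-2 and Mir98, which lie together within Huwe1. Mir98 was also among the 7 in liver but not among the 6 in plasma, and of all genes Mirlet7f-2 alone was in each of the 3 sets. Mir98 itself had low counts, with 3.34 to 16.5 CPM in liver inputs and 5.69 to 19.2 CPM in liver pull-downs.

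Mirlet7c-1 per count of Mirlet7g separated in the other direction. Liver inputs were at 0.114 to 0.185 and liver pull-downs at 0 to 0.0119, and VsWAT inputs were at 0.317 to 1.29 and pull-downs at 0 to 0.179 (exact permutation p = 0.0022 and adjusted p = 0.0032 in each). Ratios that were lower in every pull-down were common, in 33.3% of microRNA genes in liver and 22.6% in VsWAT. Plasma inputs overlapped the pull-downs for this ratio, exact permutation p = 0.43. VsWAT total RNA gave Mirlet7c-1 ratios of 0.190 to 0.272, below all 6 VsWAT small RNA inputs.

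**Figure D3:**
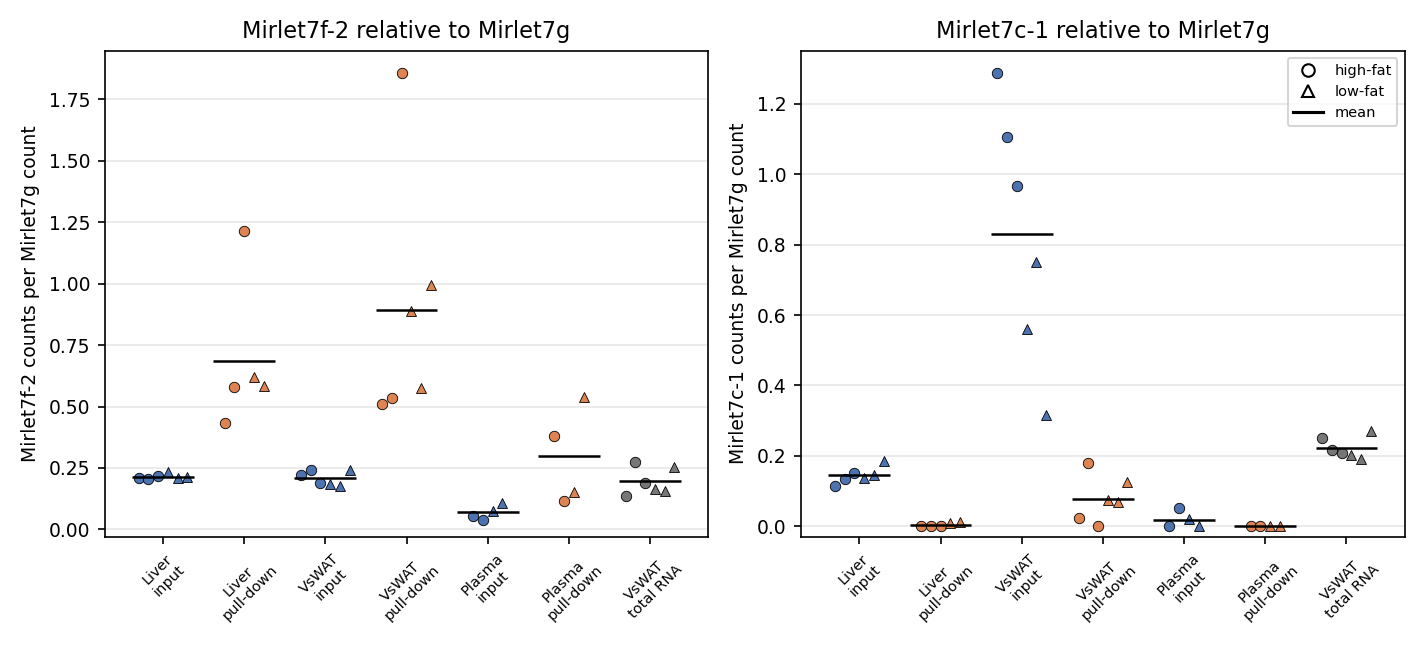
Counts of Mirlet7f-2 (left) and Mirlet7c-1 (right) per count of Mirlet7g in each library, with circles for high-fat, triangles for low-fat and bars for means. The 6 liver inputs sit at 0.207 to 0.234 for Mirlet7f-2 and the 5 liver pull-downs at 0.432 to 1.21, while Mirlet7c-1 drops to at most 0.0119 there.

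As shares of the let-7 sum, the 3 genes shifted accordingly. The median share of Mirlet7g went from 73.5% in liver input to 62.7% in the pull-down, that of Mirlet7f-2 from 15.6 to 36.7% and that of Mirlet7c-1 from 10.3 to 0%. In VsWAT the shares were 49.2, 9.69 and 41.9% in input against 54.6, 40.1 and 4.0% in the pull-down. Plasma moved from 91.5% of Mirlet7g and 6.0% of Mirlet7f-2 to 79.6 and 20.4%. Within the microRNA pool without Mir6236, the let-7 sum was 60.2 ± 4.75 per 1000 counts in liver input and 59.9 ± 5.97 in the pull-down (SD, n = 6 and 5), so the sum differed by less than the spread between libraries while its parts shifted. The same measure was 93.1 ± 17.6 and 185 ± 91.6 in VsWAT (n = 6 each) and 51.6 ± 16.4 and 75.6 ± 10.5 in plasma (n = 4 each), and no test was made of these sums.

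Whether the pull-down change differed between liver and VsWAT was tested directly, in 1 model of both tissues that called 7.7% of 11979 features. The median difference was -1.525 over the 65 microRNA genes tested, against -0.05 over all features. Of these microRNA genes 4 were called lower and 0 higher. Mirlet7f-2 was lower in liver relative to VsWAT by -2.12 ± 0.63, adjusted p = 0.041 by edgeR, but leaving out any 1 of 14 of the 23 libraries ended the call, with values from -2.21 to -1.16. Mirlet7g differed by -1.95 ± 0.72 (adjusted p = 0.097) and Mirlet7c-1 by -3.35 ± 1.11 (adjusted p = 0.066), neither of them called. The difference between plasma and tissue was not tested.

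Around the members, the long host and neighbour transcripts were higher in the liver pull-down and the neighbouring microRNA genes were lower. Wdr82, which holds Mirlet7g and encodes a subunit of a histone H3 lysine 4 methyltransferase complex, was higher in the liver small RNA pull-down by 0.62 ± 0.22 (edgeR, adjusted p = 0.029, lost without any 1 of 7 of 11 libraries). Huwe1, the ubiquitin ligase gene that holds Mirlet7f-2 and Mir98, was higher by 0.68 ± 0.19, adjusted p = 0.0067. In the VsWAT pull-down edgeR called neither Wdr82 (0.14 ± 0.18, adjusted p = 0.56) nor Huwe1 (-0.20 ± 0.13, adjusted p = 0.23). Mir98 was not called in VsWAT either (0.05 ± 0.56, edgeR adjusted p = 0.95). On library totals, where the median feature rose by 0.64, Wdr82 was higher in all 6 VsWAT pull-downs (32.6 to 54.1 CPM) than in any input (15.4 to 32.0). Huwe1 exceeded the highest input in 5 of 6. Liver minus VsWAT, the pull-down change was not called for Wdr82 (0.57 ± 0.30, edgeR adjusted p = 0.27). It was called for Huwe1 (0.98 ± 0.25, edgeR adjusted p = 0.018). Mir99ahg, the long RNA beside Mirlet7c-1, was higher by 1.33 ± 0.45 in liver (edgeR adjusted p = 0.020, from 0 to 6 counts per input, lost with adjusted p = 0.077 under the replicate block and without any 1 of 3 of 11 libraries) and by 0.77 ± 0.21 in VsWAT (adjusted p = 0.0084). Mir99a, the microRNA gene of the Mirlet7c-1 locus, had 28 input counts and 1 pull-down count in liver and was lower in the VsWAT pull-down by -2.45 ± 0.74 (edgeR, adjusted p = 0.014). That VsWAT call was lost without low-fat input library 1 and by DESeq2 (adjusted p = 0.052), and the value was -0.31 among microRNA genes alone. Mir99b, the neighbour of the uncounted Mirlet7e, was lower by -6.24 ± 0.75 in liver and -3.20 ± 0.42 in VsWAT, with adjusted p values of 1.3e-05 and 2.9e-05 by edgeR, and Mir98, the neighbour of Mirlet7f-2, was at -1.22 in liver as given above. A read count over a locus does not say whether a read came from the mature microRNA, the hairpin or the host transcript.

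With the filter on low counts, diet moved no counted member past the threshold in any set. By edgeR, 0 of 3 members were called in liver input (0.202% of all features called) and liver pull-down (0.0357%), and 0 of 3 in VsWAT input (0.0794%) and pull-down (0.406%). In plasma 0 of 2 were called in input and in pull-down, where edgeR called 0% of features (0 features at an unadjusted p under 0.05 in input and 453 in pull-down), and DESeq2 called 0 and 125 features. DESeq2 called 0 members in these 6 comparisons. The change of diet response between fractions was likewise called for 0 members, with 0% of features called and 331, 475 and 209 features at an unadjusted p under 0.05 in liver, VsWAT and plasma, and 0, 2 and 0 by DESeq2.

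VsWAT Mirlet7g was the member with the clearest diet pattern without a call. Its 3 high-fat inputs (74.9 to 114 CPM) lay below its 3 low-fat inputs (122 to 233 CPM), as 4.89% of features did, and the edgeR change was -1.21 ± 0.78, adjusted p = 1.00. Mirlet7f-2 changed by -1.18 ± 0.74 in the same comparison, with overlapping diets, and without the filter on low counts edgeR called both, at -1.26 (adjusted p = 3.2e-04) and -1.22 (adjusted p = 0.020). In VsWAT total RNA the 3 members were lower on the high-fat diet by values of similar size, namely -0.72 ± 0.30 for Mirlet7g, -0.76 ± 0.37 for Mirlet7f-2 and -0.74 ± 0.37 for Mirlet7c-1. None was called by edgeR (adjusted p = 0.37, 0.42 and 0.45), their diet ranges overlapped, and 0.278% of features were called. At an unadjusted threshold of 0.05 it would have been 1 of 3, Mirlet7g, where 13% of all features passed. The 13 microRNA genes tested in VsWAT total RNA had a median diet change of -0.98, against -0.01 over all features. Members thus fell less there than the median microRNA gene. In VsWAT small RNA input the median of the 63 microRNA genes tested was -0.38.

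Mirlet7c-1 per Mirlet7g count was higher in each VsWAT input on the high-fat diet (0.967 to 1.29) than on the low-fat diet (0.317 to 0.752). No test was made of this ratio by diet, which was picked after the values were seen, and in VsWAT total RNA the diets overlapped (0.207 to 0.250 and 0.190 to 0.272). Among pull-downs, Mirlet7f-2 was lower on the high-fat diet in liver without overlap, as 18.9% of features were, and plasma Mirlet7g was higher on the high-fat diet without overlap, as 9.71% were.

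Libraries named mRNA held few let-7 counts. In liver mRNA, Mirlet7g had 0 to 9, Mirlet7f-2 0 to 17 and Mirlet7c-1 0 to 2 counts per library, and the 3 genes were below the filter. Kidney mRNA had 0 to 58, 1 to 10 and 0 to 1, and edgeR called neither Mirlet7g (adjusted p = 0.14) nor Mirlet7f-2 (adjusted p = 0.83) between its fractions, where 53% of features were called. In VsWAT total RNA all 3 were counted in all 6 libraries, at 12.9 to 36.2 CPM for Mirlet7g, 3.03 to 5.96 for Mirlet7f-2 and 2.80 to 7.34 for Mirlet7c-1. Wdr82 was higher in the pull-down of liver mRNA by 1.70 ± 0.16 and of kidney mRNA by 1.37 ± 0.17 (edgeR, adjusted p = 9.9e-07 and 4.9e-05). Huwe1 was not called in liver mRNA (0.21 ± 0.17, edgeR adjusted p = 0.27) and was higher in kidney mRNA by 0.40 ± 0.14 (edgeR adjusted p = 0.030).

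Genes that make or destroy let-7 were read from the mRNA libraries. Of 14 microRNA processing genes, 7 were higher and 3 lower in the liver mRNA pull-down, with a median change of 0.41 against 0.02 over all features, where edgeR called 73.8% of 10865 features (37.7% higher and 36.1% lower). Prkra, a partner protein of Dicer, fell by 1.93 ± 0.18, while the Argonaute genes Ago4, Ago3 and Ago2 rose by 1.62 ± 0.23, 1.01 ± 0.14 and 0.56 ± 0.10. In kidney 9 of 14 were higher and 1, Prkra, was lower (26.6% of 15023 features were called higher and 26.4% lower), among them Khsrp, which binds let-7 precursors and aids their processing, by 1.35 ± 0.16 and Dicer1 by 1.03 ± 0.15.

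Genes known to control let-7 precursors, 7 of which could be tested, were mostly on the higher side. In liver 6 of 7 were higher and 0 lower (37.7% of all features were higher): Tut4, a terminal uridylyltransferase that acts on pre-let-7 with Lin28, by 1.61 ± 0.11, Usb1, an exonuclease, by 1.58 ± 0.14, Hnrnpa1, which binds the let-7a precursor in human cells, by 1.42 ± 0.10, and Tent2, a nucleotidyltransferase, by 1.21 ± 0.13. Kidney had 5 of 7 higher (26.6% of all features), with Hnrnpa1 at 1.24 ± 0.15, Tent2 at 1.23 ± 0.26, Usb1 at 0.98 ± 0.17 and Tut4 at 0.83 ± 0.19. Both Lin28 genes were among the list members that did not enter the test.

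Known let-7 targets were called in both directions, with more of them higher than lower in the pull-down of liver and of kidney. In liver mRNA 11 of 19 tested targets were higher in the pull-down and 6 lower, with a median of 0.26, where 37.7% of all features were higher and 36.1% lower. Myc and Mycn, growth-promoting transcription factors, rose by 2.04 ± 0.17 and 1.75 ± 0.19, Plagl2, a zinc finger factor, by 1.61 ± 0.18, and Tgfbr1, a TGF-beta receptor, by 1.31 ± 0.10 (edgeR, adjusted p from 1.7e-07 to 4.8e-06). Kidney had 16 of 26 higher and 4 lower, with a median of 0.80 against 0.01 over all features, of which 26.6% were higher and 26.4% lower, led by Bach1 at 1.80 ± 0.24, the cell-cycle phosphatase gene Cdc25a at 1.46 ± 0.18 and the cyclin gene Ccnd1 at 1.16 ± 0.18. Beside these counts, markers of other cells moved in the liver mRNA pull-down: 7 of 8 hepatocyte genes, 4 of 4 tested erythroid and 5 of 5 tested macrophage genes were called lower, and their part in the lists was not tested.

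Diet called few of these genes. In liver mRNA input, where 22.5% of features were called (8.87% higher), edgeR called 1 of 19 targets, 2 of 7 precursor control genes were higher on the high-fat diet (Syncrip by 0.84 ± 0.13, and Tut7, a uridylyltransferase related to Tut4, by 0.51 ± 0.16), and 0 of 14 processing genes were called, 2 by DESeq2. The low-fat liver mRNA inputs were uneven, with library 1 far from libraries 2 and 3, which were nearly alike. In kidney mRNA input edgeR called 0% of features (17.2% at an unadjusted p under 0.05, and 540 features by DESeq2). VsWAT total RNA had 0 of 23 targets called, where edgeR called 0.278% of all features.

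The features most like the summed let-7 level were found by Pearson correlation of log2(CPM + 1) over the 31 small RNA libraries, which share depth and fraction, among 9426 features including 73 microRNA genes. The closest microRNA genes were Mir130a (r = 0.88), Mir29a (0.87), Mir328 (0.80), Mir674 (0.80) and Mir23a (0.76). Of other features, Snord110 (0.85) and 4 tRNA genes were closest, with r from 0.82 to 0.86. Within tissues the order held only in part: Mir130a had r of 0.96 in liver, 0.94 in VsWAT and 0.74 in plasma, while Mir328 had 0.98, 0.71 and -0.44. These values describe likeness across libraries that include both fractions and carry no test.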

How the data were processed

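Per the submitters' processing notes, the authors aligned reads with STAR and counted them with HTSeq on mm10. Each deposited file gives raw counts per feature. Tool versions, annotation release, strand setting and the treatment of multiply matching reads: not given in the sources used here. Per the labels' protocols, tissue RNA was extracted with NucleoZOL and plasma RNA with Tri reagent BD after a spin filter, and all libraries used a CATS small RNA kit. Without a stated strand setting, reads of a microRNA and of an overlapping transcript cannot be told apart. Of 55273 features, 54723 were matched to symbols. Sequences and loci come from RefSeq, GRCm38.p6.

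Each RNA kind and tissue was fitted with edgeR 4.0.16 (R 4.3.3) by the quasi-likelihood test, with TMM scaling, the filterByExpr filter, 1 coefficient per group and Benjamini-Hochberg adjustment over all tested features at a threshold of 0.05. SE values are the log2 change divided by the square root of F. The fit was tried on simulated counts drawn with the same dispersion for every gene and set. That trial does not speak for the spread of the real plasma or microRNA counts. Alternatives were RLE and library-total scaling, no filter, DESeq2 1.42.0, microRNA genes alone, a replicate block, only the groups compared, and each library left out. Ratios used libraries with at least 10 Mirlet7g counts and exact permutation over libraries. Intervals and floors (3 counts) cover counting error only. No 2 libraries held identical values, but some pairs differed by little more than counting error, for which chi-square per degree of freedom is near 1. It was 1.53 for high-fat VsWAT small RNA inputs 1 and 2, against 8.83 and 9.43 for these with library 3. For liver mRNA inputs it was 1.18 for high-fat 1 and 3, and 1.13 for low-fat 2 and 3. Whether such pairs come from 1 sample is not given, and each library was counted separately. Depth ran from 221875 counts in a plasma pull-down to 19645443 in a kidney input. Replicate numbers are shared between groups. A block was to be used where every same-numbered pair, of at least 3, correlated above 0.1. No comparison reported met that rule, so the fit has no block. Input and pull-down pairs nevertheless all correlated positively in liver (0.0368 to 0.256) and VsWAT (0.0399 to 0.324) small RNA.

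Every member was named, with the 5 microRNA genes and 5 other features most like their sum, and up to 4 genes per list with the smallest p. The ratios, Mir98 with its host and neighbour genes, and genes of the ratio background were chosen after values were seen. The members and lists were chosen with earlier results of these data known. The values of 1 target gene are not reported here.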

Additional observations from a re-analysis of the deposited data

Results flagged for a closer look

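The pull-down change of Mirlet7f-2 differed between tissues by the test of the difference itself: liver minus VsWAT was -2.12 on the log2 scale (edgeR, adjusted p = 0.041, 11 liver and 12 VsWAT libraries), from a change of -1.94 in liver and 0.29 in VsWAT. The 65 microRNA genes tested had a median of -1.525 in the same contrast, against -0.05 over all features. On library totals edgeR called 0 of 3 members for the difference between tissues, and the call of Mirlet7f-2 ended without any 1 of 14 of the 23 libraries. With at most 3 libraries per group, groups were taken as too small for a formal screen for a library far from the others. By chi-square per degree of freedom, low-fat liver mRNA input 1 was at 62.5 and 58.75 against libraries 2 and 3. These 2 were at 1.13 to each other. High-fat kidney mRNA input 1 was at 91.4 and 92.3 against libraries 2 and 3, which were at 6.19.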

How the results depend on the processing

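Liver pull-down calls of the 3 counted members held with each library left out (3 of 3 called) and the diet comparisons of the small RNA sets kept 0. Reversed directions were liver Mirlet7f-2 at 1.08 and Mir98 at 1.84, VsWAT Mirlet7g at 0.69, plasma minus liver Mirlet7g at -1.37 and plasma minus VsWAT Mirlet7f-2 at -1.66 among microRNA genes alone; plasma Mirlet7g at 0.61 and plasma minus VsWAT Mirlet7f-2 at -0.28 on library totals; VsWAT Mirlet7f-2 at -0.66 without high-fat pull-down library 1 (up to 0.54 without another); and plasma Mirlet7f-2 at -0.27, -0.45, -0.09 and -0.53 without high-fat input 2, low-fat input 2, high-fat pull-down 1 and low-fat pull-down 2 (up to 0.44 without another). The cause was not tested.

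Members called in the VsWAT pull-down were 1, against 2 without a filter, 3 among microRNA genes alone, 2 with the replicate block and 1 to 2 leaving out 1 library. For liver minus VsWAT, 1 became 0 on library totals, 3 without a filter, 2 by DESeq2, 2 among microRNA genes alone and 0 to 3 leaving out 1 library. For plasma minus liver, 1 became 2 on library totals, 2 without a filter, 3 among microRNA genes alone and 1 to 2 leaving out 1. Inputs of liver against VsWAT and plasma against VsWAT gave 2 to 3 leaving out 1 library. Without a filter, 0 became 2 for diet in VsWAT input and 1 for the VsWAT diet change between fractions, liver mRNA pull-down, liver mRNA diet, kidney mRNA pull-down and VsWAT total RNA. Leaving out 1 library gave 0 to 1 members for liver mRNA pull-down, liver mRNA diet and kidney mRNA diet.

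For diet in liver mRNA input, targets called were 2 with RLE and 2 with DESeq2 (1 to 5 leaving out 1 library), processing genes 1 with RLE, 2 without a filter and 2 with DESeq2 (0 to 6), and precursor control genes 1 on library totals, 1 with the replicate block and 1 with only the groups compared (1 to 2). Leaving out 1 library, the plasma ratio of Mirlet7f-2 to Mirlet7g differed 3.13- to 5.31-fold. Same-numbered input and pull-down libraries correlated at 0.0399 to 0.324 in VsWAT and 0.0368 to 0.256 in liver small RNA, not above 0.1 in every pair. With the replicate block, VsWAT Mirlet7g was at -1.91, adjusted p = 0.0046 by edgeR. Low counts limit Mirlet7c-1 in pull-downs and all members in the mRNA libraries.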
